A study of Mus musculus with 12 samples.

Results

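The axis that controls the formation of osteoclasts was followed in sorted bone stroma through 4 genes: Tnfsf11, which encodes RANKL, Tnfrsf11b, which encodes osteoprotegerin, Tnfrsf11a, which encodes RANK, and Csf1, which encodes M-CSF. They were chosen by gene symbol, through the probe sets of the array that carry that symbol alone, and each of the 4 had exactly 1 such probe set among the 19937 genes named on the array. All 4 were among the 12430 genes tested, that is, genes whose value was above the median of its array on at least 3 of the 12 arrays. Tnfsf11 and Csf1 were above the array median on every array, Tnfrsf11a on 11 of 12, and Tnfrsf11b on all 6 osteoblast arrays and on none of the 6 endothelial ones. Tnfrsf11b therefore entered the tests through osteoblasts alone.

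The arrays measured RNA of stromal cells that had been sorted out of long bones. All mice were female and NOD SCID, a strain without functional T and B lymphocytes. The tumor-bearing mice had received 200000 cells of MDA-MB231 scp1833, a bone-seeking subline of a human breast cancer line, into the heart, and the tumors had grown for about 2 weeks. The tumor-free mice are the comparison group in the same strain. Osteoblasts were gated as negative for GFP, TR119, CD45, SCA1 and CD31 and positive for CD51, and endothelial cells as negative for GFP, TR119 and CD45 and positive for SCA1 and CD31. Each of the 4 groups, namely osteoblasts and endothelial cells of tumor-free and of tumor-bearing mice, had 3 arrays. The labels call them biological replicates. Pooling of mice on an array is not stated, nor is it stated whether osteoblast and endothelial arrays came from the same mice, and the p-values refer to the spread among these arrays, part of which may be technical.

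RANKL is a cytokine of the TNF family that osteoblast-lineage cells and other stroma carry on their surface or release. It binds RANK on osteoclast precursors and drives them to become bone-resorbing osteoclasts, while M-CSF, acting through the receptor encoded by Csf1r, keeps these precursors alive and dividing. Osteoprotegerin is a secreted decoy that captures RANKL before it reaches RANK, so the balance of RANKL and osteoprotegerin in the stroma is widely used as an index of its support for bone resorption.

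The start regions of the ligands Tnfsf11 and Csf1, which were above the array median on every array, are printed here. No promoter window was available for Tnfrsf11b. Each window of 300 bases spans the start of the gene, most of it upstream, is printed on the strand of the gene and was taken from RefSeq on mouse build GRCm38.p6, at chr14:78307994-78308293 on the minus strand for Tnfsf11 and chr3:107760420-107760719 on the minus strand for Csf1. Capitals mark matches on either strand to 8 motifs that were searched.
Tnfsf11: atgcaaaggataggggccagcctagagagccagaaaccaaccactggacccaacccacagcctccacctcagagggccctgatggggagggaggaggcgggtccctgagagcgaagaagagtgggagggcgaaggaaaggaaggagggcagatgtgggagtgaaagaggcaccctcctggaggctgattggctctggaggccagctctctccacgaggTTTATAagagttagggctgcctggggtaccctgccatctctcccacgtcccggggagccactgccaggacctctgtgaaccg
Csf1: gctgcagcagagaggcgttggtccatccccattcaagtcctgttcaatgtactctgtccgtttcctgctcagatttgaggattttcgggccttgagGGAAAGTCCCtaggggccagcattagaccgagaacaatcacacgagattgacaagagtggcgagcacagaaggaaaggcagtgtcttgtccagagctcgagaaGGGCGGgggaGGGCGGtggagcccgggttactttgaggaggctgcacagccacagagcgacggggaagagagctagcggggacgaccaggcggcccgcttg

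The motifs were a Runx core TGTGGT, held by 16.8% of 32851 promoter windows of the same length, AP-1 as TGANTCA (7.81%), a cAMP response element TGACGTCA (1.79%), an Sp1 GC box GGGCGG (35.7%), a TATA box TATAAA (13.6%), an E-box CACGTG (7.15%), a nuclear receptor site AGGTCA (16.3%) and NF-kB by its name (8.46%). The Tnfsf11 window held a single match, TTTATA beginning at position -32 from the start, which is TATAAA read on the strand opposite to the gene. The Csf1 window held GC boxes beginning at -51 and -41 and an NF-kB match beginning at -154. The Tnfrsf11a window, at chr1:105780473-105780772 on the plus strand, held 5 GC boxes and none of the other motifs, and its GC content was 76.7%, against 61.7% for Tnfsf11 and 58.7% for Csf1. Such matches describe letters and do not show that a factor binds.

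Before the members are described, the quality of the groups bears on every osteoblast value. Medians of the arrays lay between 5.21 and 5.41 on the log2 scale. Over the tested genes, pairs of tumor-free osteoblast arrays correlated at 0.723 to 0.849, against 0.908 to 0.948 for osteoblasts of tumor-bearing mice and at least 0.953 for both endothelial groups. Of the genes of the gates, Pecam1, which encodes CD31, averaged 10.76 ± 0.08 (SD, n = 3) in tumor-free endothelial cells. In tumor-free osteoblasts it averaged 5.69 ± 0.61 (SD, n = 3). Itgav, which encodes CD51, averaged 8.38 ± 0.43 in tumor-free osteoblasts and 8.91 ± 0.36 in those of tumor-bearing mice (SD, n = 3). In endothelial cells it still read 7.27 ± 0.43 without tumor and 7.86 ± 0.03 with it. The 8 osteoblast markers measured averaged 9.23 to 10.50 on the osteoblast arrays and 6.45 to 6.88 on the endothelial ones. The 10 endothelial markers averaged 9.84 to 10.18 in endothelial cells and 5.01 to 5.99 in osteoblasts. The tumor-free osteoblast arrays did not share 1 makeup. Ptprc, which encodes the excluded CD45, read 4.92, 8.46 and 6.41 on replicates 1, 2 and 3, and the mean of 11 monocyte and macrophage markers read 5.23, 8.64 and 8.51. In osteoblasts of tumor-bearing mice that mean was 7.23, 6.83 and 5.06, and on the endothelial arrays it stayed between 5.52 and 5.85.

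Osteoprotegerin was the member that rose in osteoblasts of tumor-bearing mice. Tnfrsf11b read 6.67, 5.87 and 5.57 in tumor-free osteoblasts and 7.62, 8.19 and 7.14 in osteoblasts of tumor-bearing mice, all on the log2 scale, for replicates 1 to 3. The groups did not overlap, and the lowest array with tumor stood above the highest without. The means were 6.04 ± 0.57 (SD, n = 3) and 7.65 ± 0.53 (SD, n = 3), a log2 difference of 1.61 ± 0.29 (SE) or 3.06-fold, with a 95% interval of 1.95- to 4.80-fold and an adjusted p of 0.0148 in limma's moderated test across all genes. That error and interval rest on the spread of all 4 groups. For Tnfrsf11b the spread was 0.57 and 0.53 (SD, n = 3) in the osteoblast groups. It was only 0.02 and 0.07 in the endothelial groups, whose values lie below the array median. With this fit Tnfrsf11b was the 1 of 4 members called, and it was called higher. Among all tested genes 4.59% were called, 4.01% higher and 0.571% lower, and the groups did not overlap for 24.7%. Calls over all genes ran mainly upward, 87.5% of them after the deposited scaling and 66.7% after quantile normalization between arrays.

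The rise of Tnfrsf11b had the same sign in each of the 12 fits that left out 1 array, with differences from 1.34 to 1.93. It passed the threshold in 11 of them, and without replicate 2 of the tumor-bearing osteoblasts it was 1.34 with an adjusted p of 0.063. With tumor-free replicate 1, the one with low macrophage markers, as the only tumor-free array of each cell type, the difference was 0.98 with an adjusted p of 0.151, and fitted on the 2 osteoblast groups alone it was 1.61 with an adjusted p of 0.178. In bulk samples a change in the number of cells of a type and a change of RNA per cell cannot be told apart.

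RANKL itself did not follow. Tnfsf11 read 7.33, 7.98 and 7.66 in tumor-free osteoblasts and 8.39, 7.51 and 7.84 in those of tumor-bearing mice. The highest array belonged to the tumor-bearing group, but its other arrays lay within the tumor-free range. The difference was 0.25 ± 0.24 (SE, adjusted p = 0.535), and its 95% interval of -0.28 to 0.78 reaches from a small fall to a 1.72-fold rise.

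M-CSF varied more within the osteoblast groups than between them. Csf1 read 7.10, 7.80 and 8.86 without tumor and 8.74, 7.65 and 7.24 with it, so both groups span nearly the same range. The difference of -0.05 ± 0.44 (SE, adjusted p = 0.959) turned to 0.01 when the arrays were centred on their medians. Its 95% interval was wide, from -1.01 to 0.92. Beside it, the mean of 8 markers of reticular and adipogenic stroma, which is known as a source of M-CSF in marrow, read 7.99, 8.93 and 9.32 without tumor and 9.85, 9.16 and 8.45 with it. Of the osteoblast arrays, tumor-free replicate 1 had both the lowest Csf1 and the lowest marker mean, and the part of these cells in the Csf1 values was not tested.

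RANK, the receptor on the osteoclast precursor, was close to the array median in all groups. Tnfrsf11a read 5.71, 5.87 and 5.82 in tumor-free osteoblasts and 5.20, 5.63 and 5.67 in those of tumor-bearing mice. These groups did not overlap either, and the difference of -0.30 ± 0.15 (SE) had an adjusted p of 0.24. The 10 osteoclast markers averaged 5.10, 6.25 and 6.54 on the tumor-free osteoblast arrays and 5.90, 5.50 and 5.51 on the tumor-bearing ones, and their part in the Tnfrsf11a values was not tested.

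**Figure D1:**
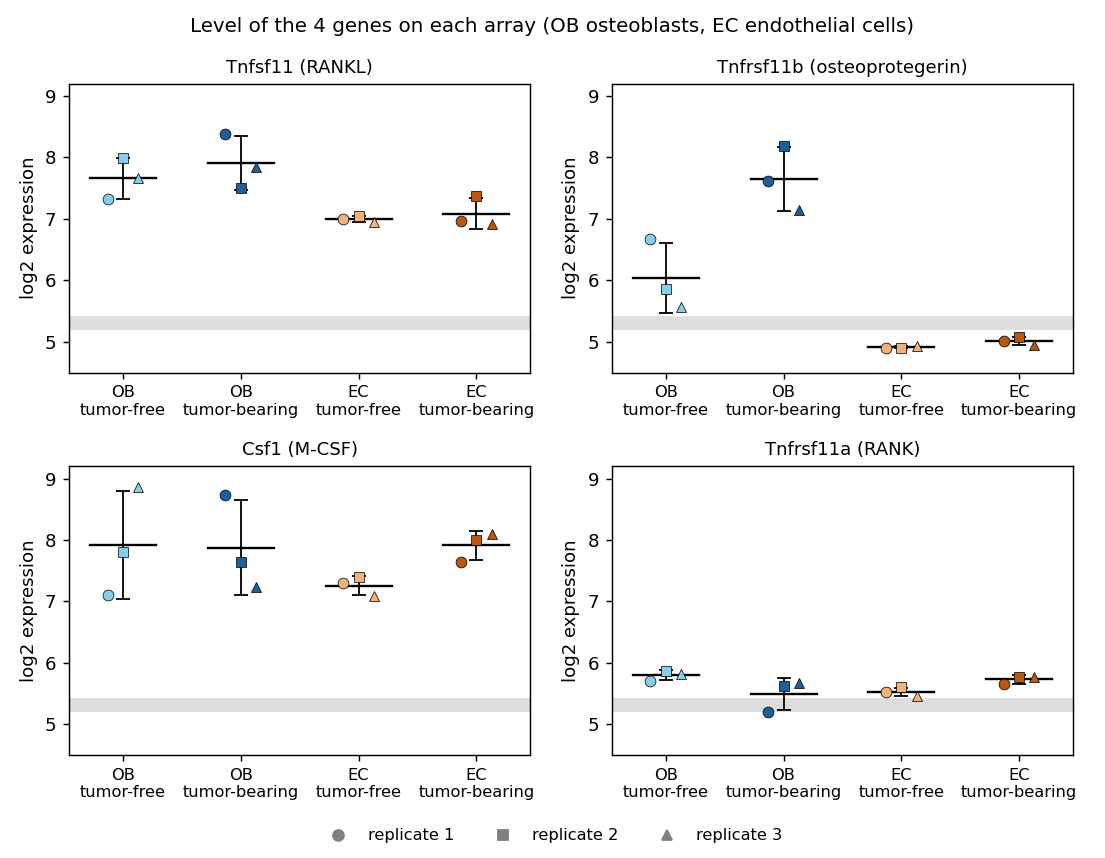
Deposited log2 value of each member on each of the 12 arrays, by group, with the group mean and SD (n = 3) and a grey band for the array medians of all probe sets, 5.21 to 5.41. Tnfrsf11b lies at 5.57 to 6.67 in tumor-free osteoblasts, at 7.14 to 8.19 in osteoblasts of tumor-bearing mice and at 4.90 to 5.07 on the endothelial arrays, while the osteoblast groups overlap for Tnfsf11 and Csf1.

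In endothelial cells no member passed the test between tumor-bearing and tumor-free mice, with limma's adjusted p at 0.906 or above and an unadjusted p under 0.05 for 0 of the 4. The share called among all genes was 0.0241%. Csf1 read 7.30, 7.39 and 7.09 without tumor and 7.64, 7.998 and 8.10 with it. All 3 arrays with tumor were above all 3 without, a pattern found for 18.8% of tested genes. The difference was 0.65 ± 0.44 (SE) or 1.57-fold, with a 95% interval of -0.31 to 1.62 and an adjusted p of 0.906. That error comes from the spread of all 4 groups, which for Csf1 was 0.15 and 0.24 (SD, n = 3) in the endothelial groups and 0.88 and 0.77 in the osteoblast groups.

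Tnfsf11 in endothelial cells read 7.00, 7.05 and 6.96 without tumor and 6.96, 7.38 and 6.91 with it, and only replicate 2 of the tumor-bearing group left the narrow tumor-free range upward. The difference was 0.08 ± 0.24 (SE), with a 95% interval of -0.45 to 0.61. Tnfrsf11a read 5.53, 5.60 and 5.47 without tumor and 5.65, 5.78 and 5.77 with it, a difference of 0.20 ± 0.15 (SE) between groups that did not overlap. Tnfrsf11b was below the array median throughout, at 4.91, 4.90 and 4.93 without tumor and 5.02, 5.07 and 4.94 with it, so its difference of 0.10 ± 0.29 (SE) is between values below that median.

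Whether the tumor difference of a gene was itself unlike in the 2 cell types was tested as a difference of differences. For Tnfrsf11b the osteoblast difference exceeded the endothelial one by 1.52 ± 0.42 (SE), with a 95% interval of 0.60 to 2.43. Its unadjusted p was 0.00392 and its adjusted p 0.149, so it missed the threshold. Tnfrsf11a, which was lower with tumor in osteoblasts and higher in endothelial cells, gave -0.50 ± 0.21 (SE, adjusted p = 0.282). Tnfsf11 gave 0.17 ± 0.34 (SE) and Csf1 -0.70 ± 0.62 (SE), with adjusted p of 0.819 and 0.584. Limma called 0 of the 4 members here, with 2 at an unadjusted p under 0.05, where it called 0.209% of all genes. Without tumor-free osteoblast replicate 1 the Tnfrsf11b value became 1.84 with an adjusted p of 0.0173, the only fit of the 12 with 1 array left out in which it passed.

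**Figure D2:**
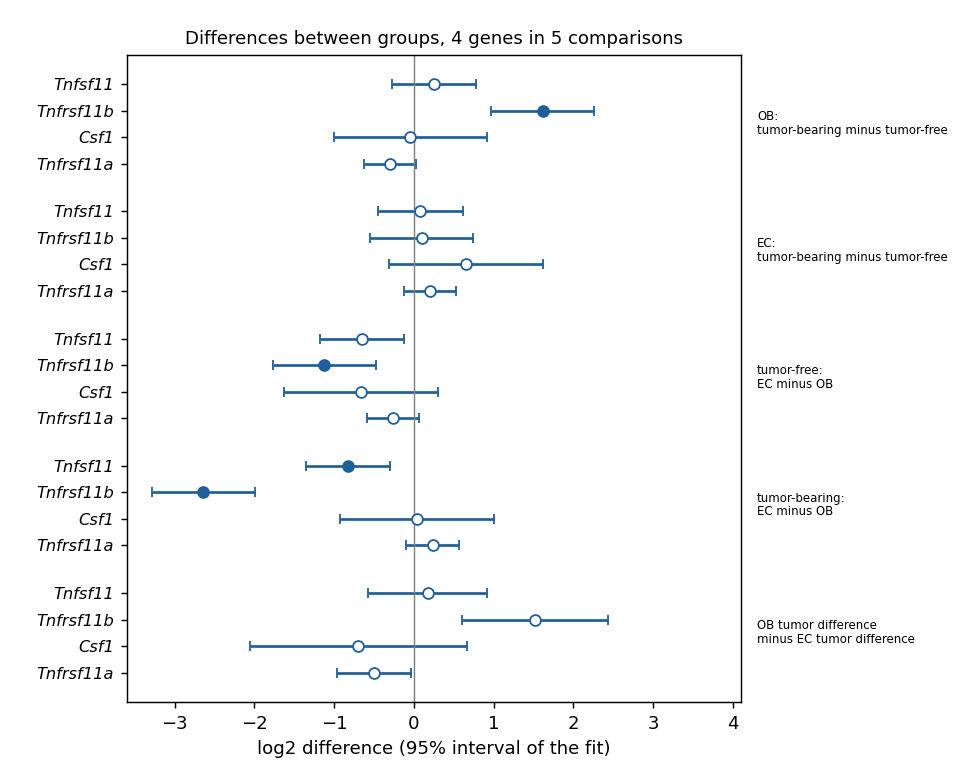
Log2 difference of each member in the 5 comparisons, with its 95% interval from limma and with filled points for adjusted p under 0.05. Tnfrsf11b is filled in osteoblasts with tumor against without (1.61) and in both comparisons of cell types (-1.12 and -2.64), and Tnfsf11 in the comparison of cell types with tumor (-0.83).

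Between the cell types, osteoprotegerin was lower in endothelial cells than in osteoblasts with and without tumor, and RANKL was called lower in tumor-bearing mice alone, close to the threshold. In tumor-free mice Tnfrsf11b was 2.18-fold lower in endothelial cells (-1.12 ± 0.29 on the log2 scale, adjusted p = 0.0171), and in tumor-bearing mice 6.23-fold lower (-2.64 ± 0.29, adjusted p = 0.000125). These folds are set against endothelial values below the array median, and since Tnfrsf11b passed the filter through osteoblasts alone, a difference between the cell types was fixed by the filter. With all 19937 genes tested and no filter, its adjusted p was 0.0177 and 0.00019. Of all genes 31% were called in tumor-free mice, 18.2% higher and 12.7% lower in endothelial cells, and 14.9% in tumor-bearing mice, 8.13% higher and 6.79% lower, so a call between cell types is common. Groups that did not overlap were found for 47.3% and 35.9% of tested genes. In tumor-free mice 58.9% of the calls were higher in endothelial cells, and 78.4% after centring on the array medians, which moved the median difference of all genes from 0.03 to 0.18. The tumor-free difference of Tnfrsf11b passed in 11 of 12 fits with 1 array left out, the exception being without replicate 2 of the tumor-free endothelial cells (adjusted p = 0.0509). The tumor-bearing one passed in all 12, between -2.90 and -2.37.

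Tnfsf11 was 1.77-fold lower in endothelial cells of tumor-bearing mice (-0.83 ± 0.24, SE, adjusted p = 0.0399). In tumor-free mice it was 1.57-fold lower, and with an adjusted p of 0.0588 that difference (-0.65 ± 0.24, SE) missed the threshold. The groups did not overlap in either case. The lowest osteoblast array of any group, at 7.33, was exceeded by the highest endothelial array, at 7.38 in the tumor-bearing group. The tumor-bearing call is near the threshold: it passed in 5 of 12 fits with 1 array left out, and failed without replicate 1 or 3 of either tumor-bearing group or any tumor-free endothelial array, with differences from -1.03 to -0.59 and adjusted p up to 0.138. The tumor-free difference passed in 3 of 12, without replicate 1 or 2 of the tumor-bearing osteoblasts or replicate 1 of the tumor-free ones.

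Csf1 and Tnfrsf11a showed no called difference between the cell types. Csf1 was -0.66 ± 0.44 (SE, adjusted p = 0.256) in endothelial cells against osteoblasts without tumor and 0.04 ± 0.44 (SE, adjusted p = 0.977) with it, the second being -0.06 after quantile normalization. Tnfrsf11a was -0.26 ± 0.15 (SE, adjusted p = 0.185) without tumor, between groups that did not overlap, and 0.23 ± 0.15 (SE, adjusted p = 0.387) with it.

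Ordered by group mean, Tnfrsf11b was highest in osteoblasts of tumor-bearing mice, then tumor-free osteoblasts. Endothelial cells with tumor (5.01 ± 0.07, SD, n = 3) and without (4.91 ± 0.02) followed. The osteoblast pair was called apart and the endothelial pair was not, while tumor-free osteoblasts were not tested against endothelial cells with tumor. Tnfsf11 ran in the same order, 7.91 ± 0.45, 7.66 ± 0.33, 7.08 ± 0.25 and 7.00 ± 0.05, and neither the osteoblast pair nor the endothelial pair differed beyond its spread in the test. For Csf1 the means of 7.92 ± 0.88 in tumor-free osteoblasts, 7.91 ± 0.24 in endothelial cells with tumor and 7.87 ± 0.77 in osteoblasts with tumor lay within 1 SD of each other, and tumor-free endothelial cells were lowest at 7.26 ± 0.15. Tnfrsf11a ranged only from 5.50 ± 0.26 in osteoblasts with tumor to 5.80 ± 0.08 in tumor-free osteoblasts, with endothelial cells between them, and no comparison of its groups was called.

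The ratio of RANKL to osteoprotegerin was taken on each array as the log2 value of Tnfsf11 minus that of Tnfrsf11b. Because the values come from different probe sets, its level is not an amount, and only its differences between groups are read. In tumor-free osteoblasts it was 0.66, 2.12 and 2.09, and in osteoblasts of tumor-bearing mice 0.77, -0.68 and 0.70. Tumor-free replicate 1 lay among the tumor-bearing arrays, and replicate 2 of the tumor-bearing group was the lowest of all 12 arrays. The mean was 1.36 lower with tumor, or 2.57-fold, with p = 0.3 by a two-sided exact permutation test and 0.5 after adjustment over the 5 comparisons of the ratio. With 3 arrays a group this test cannot go below 0.1. Without tumor-free replicate 1 the difference was -1.84, and with that replicate as the only tumor-free array it was -0.40.

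In endothelial cells the ratio was 2.10, 2.15 and 2.02 without tumor and 1.95, 2.30 and 1.97 with it, and the means differed by -0.02 (exact permutation p = 1). The endothelial ratio rests on Tnfrsf11b values below the array median. In tumor-bearing mice it was 1.81 higher in endothelial cells than in osteoblasts, or 3.52-fold, with no overlap and the smallest p the design allows, 0.1 by the exact permutation test (0.412 adjusted). In tumor-free mice that difference was 0.47 (exact permutation p = 0.6), and it was -0.02 without replicate 1 of both tumor-free groups. With both cell types together and labels exchanged within each, the ratio was 0.69 lower with tumor (exact permutation p = 0.165, where the smallest possible is 0.005).

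**Figure D3:**
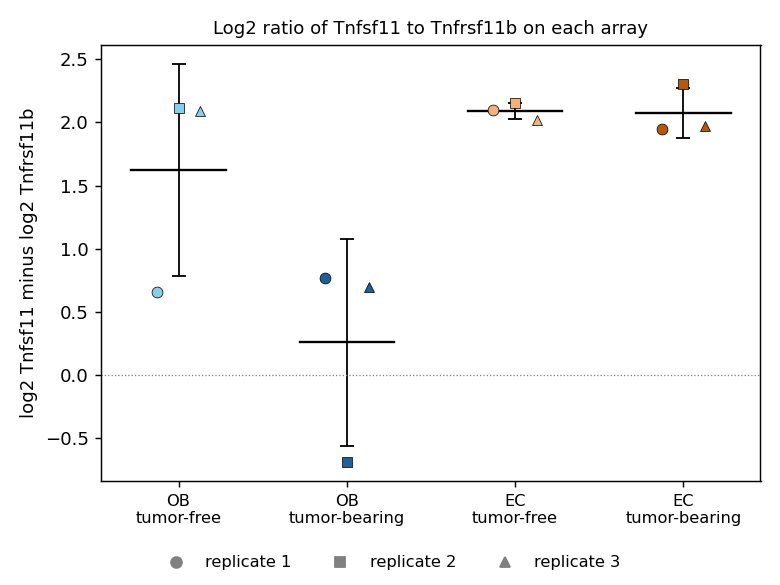
Log2 ratio of Tnfsf11 to Tnfrsf11b on each array by group, with mean and SD (n = 3) and a dotted line at 0. The endothelial arrays lie between 1.95 and 2.30, osteoblasts of tumor-bearing mice between -0.68 and 0.77, and tumor-free osteoblasts at 0.66, 2.09 and 2.12.

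Other genes of the pathway were taken from 8 lists by role, which together held 98 tested genes besides the 4. The lists were chosen with earlier results of these data known, so a count above the share of all genes is not a test of the pathway. In osteoblasts 11 of these were higher with tumor and 0 lower, and 30 (30.6%) had an unadjusted p under 0.05. Over all tested genes 4.01% were called higher and 24.4% had an unadjusted p under 0.05. In endothelial cells limma called 0 of the 98, with 16 at an unadjusted p under 0.05 (16.3%, against 6.93% of all genes), and the comparison of differences called 0, with 20 (20.4% against 16%). The median difference over the 98 genes in osteoblasts was 0.31, where the median of all tested genes was -0.00.

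The stromal inducers of RANKL and their receptors had 5 of 21 tested genes called higher in osteoblasts with tumor, where 4.01% of all genes were, and a median of 0.60. Ptgs2, the inducible enzyme of prostaglandin synthesis, read 7.00, 8.15 and 6.94 without tumor and 10.47, 10.56 and 9.30 with it, a 6.71-fold rise (adjusted p = 0.0102). Osmr, a receptor chain for oncostatin M, rose 4.97-fold (adjusted p = 0.0102), Lif, which encodes leukemia inhibitory factor, 4.51-fold (adjusted p = 0.0265), and Il11, which encodes a cytokine related to interleukin-6, 2.17-fold (adjusted p = 0.0133). Il11 was above the array median on the 3 tumor-bearing osteoblast arrays and on none of the others, so it passed the filter through the group where it was high and its fold is set against values below that median. With no filter its adjusted p was 0.0156. Stat3, the transcription factor that these cytokines activate, rose 1.74-fold (adjusted p = 0.0453). Ptgs2, Osmr and Il11 lost their call only without replicate 2 of the tumor-bearing osteoblasts among the 12 fits with 1 array left out, and Lif without that array or tumor-free replicate 3. Stat3 kept its call only without tumor-free replicate 2 or without replicate 1 of the tumor-free endothelial cells.

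Il6 and Pth1r of the same list missed the threshold. Il6, which encodes interleukin-6, read 7.18, 4.59 and 3.45 in tumor-free osteoblasts and 8.93, 8.03 and 7.74 with tumor, a difference of 3.16 ± 0.92 (SE, adjusted p = 0.0747). Its tumor-free values spread over a far wider range than those with tumor. In endothelial cells Il6 read 9.11, 5.93 and 6.64 without tumor and 9.87, 9.70 and 9.95 with it. These groups did not overlap and had higher means than osteoblasts, but Il6 was not called there. Pth1r, the receptor for parathyroid hormone and its related protein, had a difference of 1.32 ± 0.34 (SE, limma's adjusted p = 0.0547) in osteoblasts.

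Among the extracellular partners of osteoprotegerin 2 of 7 tested genes rose, where 4.01% of all genes were called higher. Sdc4, which encodes the heparan sulfate proteoglycan syndecan-4, read 7.39, 6.72 and 6.57 without tumor and 8.45, 8.74 and 8.51 with it, 3.18-fold higher (adjusted p = 0.00542), and passed in all 12 fits with 1 array left out. Thbs1, which encodes thrombospondin-1, rose 2.15-fold (adjusted p = 0.0343) and passed in 6 of these fits, failing without any 1 of the tumor-bearing osteoblast arrays, tumor-free osteoblast replicate 3, tumor-bearing endothelial replicate 1 or tumor-free endothelial replicate 3. Of the proteases that release membrane RANKL and their inhibitors, 1 of 8 rose: Timp3, an inhibitor of such proteases, 3.98-fold (adjusted p = 0.0207), a call lost without replicate 2 of the tumor-bearing or replicate 3 of the tumor-free osteoblasts.

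The remaining lists gave a single call or none. Over all tested genes 4.01% were called higher and 24.4% had an unadjusted p under 0.05 in limma. Counts from lists this short are not read as a result of the list. Of the regulators of osteoprotegerin 1 of 15 rose, the Notch ligand Jag1 (2.55-fold, adjusted p = 0.0426, called in 4 of 12 fits with 1 array left out, namely without any 1 of the tumor-free osteoblast arrays or replicate 3 of the tumor-bearing ones). Nfatc1, the transcription factor that directs osteoclast differentiation and is expressed in other cells too, was 1 of 9 genes of osteoclast transcription and costimulation and rose 3.01-fold (adjusted p = 0.0375), while the median of that list was -0.31. It read 8.04, 6.74 and 6.37 without tumor and 8.33, 8.88 and 8.73 with it, and was called in 2 of the 12 fits, without replicate 1 of either tumor-free group. Of 14 genes of osteoclast attraction and coupling the chemokine gene Cxcl1 rose 2.23-fold (adjusted p = 0.0478, called in 3 of 12 fits, without replicate 1 or 2 of the tumor-free osteoblasts or replicate 1 of the tumor-free endothelial cells). Of the 16 genes of RANK and NF-kB signaling and the 8 other ligands and receptors of the axis limma called 0, with 4 and 2 at an unadjusted p under 0.05. Fitted on the osteoblast groups alone, limma called 0 genes of any kind, with 1820 at an unadjusted p under 0.05. With tumor-free replicate 1 as the only tumor-free array, Il11, Lif, Timp3, Thbs1, Nfatc1 and Cxcl1 lost their calls.

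The receptor for M-CSF was among those 8. Csf1r read 4.28, 6.61 and 7.09 in tumor-free osteoblasts and 5.92, 5.62 and 4.40 in those with tumor, against 4.24 to 4.51 on the endothelial arrays. It was highest on tumor-free replicates 2 and 3, as was the macrophage marker mean. Csf1r is itself among the 11 genes of that mean, so this likeness is partly built in. The part of macrophages in these values was not tested. Il34, which encodes the other ligand of that receptor, differed by 0.30 ± 0.18 (SE, adjusted p = 0.322) in osteoblasts and by 0.49 ± 0.18 (SE, adjusted p = 0.588) in endothelial cells.

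**Figure D4:**
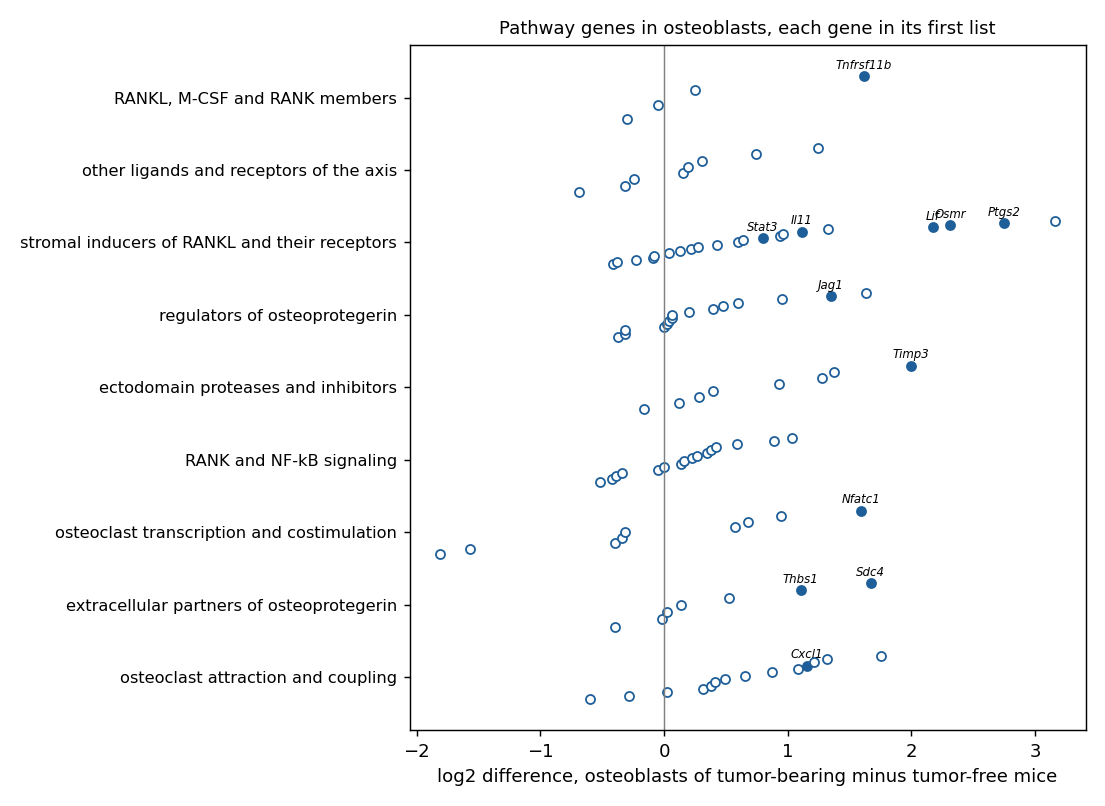
Log2 difference in osteoblasts, tumor-bearing minus tumor-free, of every tested gene of the pathway lists, each gene in the first list that holds it, with filled and named points for adjusted p under 0.05. All 12 filled points, Tnfrsf11b among them, lie above 0, and the RANK and NF-kB signaling list has none.

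Between the cell types, 47 of the 98 pathway genes were called in tumor-free mice, 24 higher and 23 lower in endothelial cells, and 33 in tumor-bearing mice, 14 higher and 19 lower. Of all tested genes 31% and 14.9% were called in these comparisons. Tnfsf10, which encodes TRAIL, another ligand that osteoprotegerin binds, averaged 7.81 ± 0.31 (SD, n = 3) in tumor-free endothelial cells and 4.48 ± 0.46 in tumor-free osteoblasts, a difference of 3.32 (adjusted p = 8.07e-05), and of 3.20 in tumor-bearing mice (adjusted p = 0.00011). Tnfsf10 was below the array median on all 6 osteoblast arrays, so it entered the tests through endothelial cells alone and had to differ there. With no filter its adjusted p was 0.000132 and 0.000177. Tnfrsf10b, the mouse TRAIL receptor, was 4.28-fold higher in tumor-free endothelial cells (adjusted p = 0.00159). Pth1r was 10.6-fold lower in endothelial cells of tumor-free and 26.6-fold lower in those of tumor-bearing mice (adjusted p = 5.63e-05 and 5.17e-06). Lgr4, a further receptor that binds RANKL, was 2.74-fold lower in endothelial cells of tumor-bearing mice (adjusted p = 0.00603), where 1 of the 3 arrays was above the array median.

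Of the 7 tested partners of osteoprotegerin, 4 were called lower in endothelial cells in each comparison, and in tumor-bearing mice 1 was called higher, Vwf, which encodes von Willebrand factor of endothelial storage granules (1.87 on the log2 scale, adjusted p = 0.00128, named after its value was seen). Of all tested genes 18.2% were called higher and 12.7% lower in endothelial cells of tumor-free mice. In tumor-bearing mice these shares were 8.13% and 6.79%. Sdc2, which encodes syndecan-2, was 15.5-fold lower in tumor-free and 8.38-fold lower in tumor-bearing endothelial cells. Sdc4 was 2.26-fold and 6.18-fold lower (limma's adjusted p of at most 0.00351 for both genes). In tumor-free endothelial cells Sdc2 was above the array median on 1 of 3 arrays, so the first of these folds is set against values near or below that median. Timp1, a protease inhibitor, was 8.77-fold and 34.5-fold lower (adjusted p = 0.00061 and 1.84e-05). In tumor-bearing endothelial cells it averaged 5.36 ± 0.39 (SD, n = 3), so the second fold is set against values near the array median. The shares of all genes given above apply to the 14 genes of osteoclast attraction and coupling too. Of these, 3 were called higher and 3 lower in endothelial cells of tumor-free mice. In tumor-bearing mice 3 were called higher and 2 lower. The 3 higher ones were the same genes in both: Sema3a, whose product is a guidance protein, was 13.3-fold and 11.2-fold higher in endothelial cells, the receptor gene Ephb4 10.6-fold and 4.54-fold, and the ephrin gene Efnb2 7.02-fold and 4.74-fold higher (adjusted p of at most 0.000341). Ephb4 was above the array median on 2 of 3 arrays in each osteoblast group, which limits its folds.

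The genes whose 12-array profile was nearest to that of a called member were picked by the root mean square difference of the centred log2 values. For Tnfrsf11b, whose own profile has a root mean square of 1.15, these were Cybrd1 (0.181), Slc6a12 (0.202), Sdc4 (0.215), Me1 (0.283) and Lpar1 (0.289), of which Sdc4 is also in the list of osteoprotegerin partners. For Tnfsf11, with 0.456, they were Srgap3 (0.15), Rnf150 (0.175), Tafa1 (0.21), Hoxa9 (0.211) and Angptl7 (0.211). The choice fixes that such genes move like the member, and nothing further is read from it.

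Marker means also differed among the osteoblast arrays. The mean of 11 immediate early and dissociation genes, which rise when cells are handled or stimulated, read 9.24, 8.64 and 8.13 in tumor-free osteoblasts and 9.69, 9.73 and 9.62 with tumor, and it ordered the 6 osteoblast arrays exactly as Tnfrsf11b did. On the endothelial arrays it ran from 8.73 to 9.73 without tumor and from 9.66 to 9.73 with it, while Tnfrsf11b stayed near 5. The mean of 10 chondrocyte markers read 9.35, 8.09 and 6.63 in tumor-free osteoblasts and 9.09, 10.01 and 9.97 with tumor, with 1 of 10 genes called higher. That of 7 smooth muscle and pericyte markers read 6.81, 6.32 and 6.29 and then 8.20, 8.18 and 7.22, with 3 of 7 called higher. Among the 11 immediate early genes 2 were called higher, and 8 had an unadjusted p under 0.05 in limma. The shares over all tested genes were 4.01% called higher and 24.4% at an unadjusted p under 0.05. Counts from such short lists are not read as a result. The chondrocyte mean of tumor-free replicate 1 was above that of tumor-bearing replicate 1, unlike Tnfrsf11b. The neutrophil marker mean, highest on the arrays with the lowest Tnfrsf11b, read 5.80, 7.64 and 7.31 and then 6.38, 6.51 and 5.43. The part of handling or of any of these cell types in the rise of Tnfrsf11b was not tested.

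**Figure D5:**
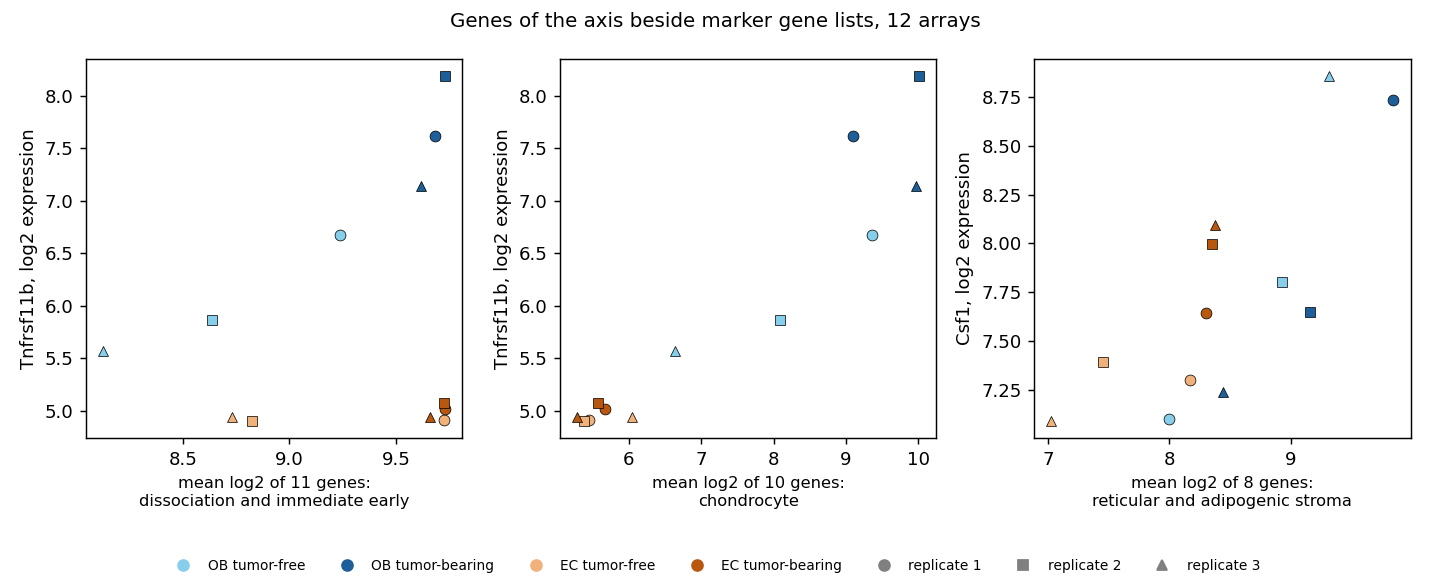
Log2 value of a member on the vertical axis against the mean log2 value of a marker list on the horizontal axis, 1 point per array, coloured by group: Tnfrsf11b against immediate early genes and against chondrocyte markers, and Csf1 against reticular stroma markers. In the first panel osteoblast arrays run from 8.13 and 5.57 (tumor-free replicate 3) to 9.73 and 8.19 (tumor-bearing replicate 2), while endothelial arrays reach the same marker means with Tnfrsf11b at 4.90 to 5.07.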

How the data were processed

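The values are on the log2 scale, as deposited by the authors for 34760 probe sets and 12 arrays, and range from 1.55 to 12.9. The submitters' processing notes name affy. Its version and normalization are not stated there. Per the labels' protocols, a Pico Pure kit yielded the RNA, which was amplified by SPIA and labelled with biotin. No pair of arrays held identical values.

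The array annotation gives 21640 probe sets 1 symbol, 1321 several, and does not list 11799. The probe set with the highest mean represents a gene. limma 3.58.1 in R 4.3.3 fitted 1 mean per group to 12430 genes above the array median on at least 3 arrays, with Benjamini-Hochberg adjustment over all of them and a threshold of 0.05, after tests on simulated data. All tests are two-sided. The number of arrays limits the precision. The ratio was tested by exact permutation over arrays and, for the replicate block, by exact sign flips of same-numbered differences. The members and lists were chosen with earlier results of these data known. Genes of the lists were named where they passed the threshold in a tumor comparison, up to 6 a list by p, or were among the 3 with the smallest p of a list in a cell type comparison, and Il6, Csf1r, Il34 and the tumor difference of Pth1r were chosen after their values were seen. The 5 genes with the profile nearest to each called member and the genes of the sort were also named. Alternatives covered the replicate block, scaling, filter, probe set, spread and arrays left out. Ly6a, which encodes SCA1, was not analysed here.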

Additional observations from a re-analysis of the deposited data

How the results depend on the processing

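Among the recomputed member and ratio values, apart from those that left out 1 array, 221 kept their direction and their side of the threshold, 10 lost the call, 2 gained it and 8 reversed. The labels do not say whether same-numbered arrays share mice. Deviations of the 18 same-numbered pairs correlated at -0.26 to 0.11, but only osteoblast and endothelial arrays of the same condition could share mice. These gave 0.095, 0.074 and -0.003 without tumor and 0.002, 0.071 and -0.046 with it. Different-numbered pairs of this kind ranged from -0.10 to 0.089, so the correlations do not settle whether mice were shared. With the replicate number as a block, Tnfsf11 between cell types with tumor was -0.83 (adjusted p = 0.0711), and genes called in osteoblasts fell from 570 to 349. For the ratio the block was an exact sign-flip test of same-numbered differences, which gave p = 0.5 in osteoblasts. With so few pairs that test cannot pass the threshold. That Tnfsf11 value also missed the threshold with median centering (-0.77), and at -0.83 with no filter, with an intensity trend and robust estimation, with only the groups compared and with tumor-free replicate 1 alone, an alternative added after seeing the data. Tnfrsf11b in osteoblasts lost its call with only the groups compared (1.61) and with tumor-free replicate 1 alone (0.98), and between tumor-free cell types with only the groups compared (-1.12) and without replicate 1 of both tumor-free groups (-0.80). That last setting called its difference of differences (1.84), and quantile normalization called Tnfsf11 between tumor-free cell types (-0.97). Reversed values were Csf1 in osteoblasts with median centering (0.011) and with tumor-free replicate 1 alone (0.77), Csf1 between cell types without tumor (0.20, replicate 1 alone) and with tumor (-0.057, quantile), the Csf1 difference of differences (0.16, replicate 1 alone) and that of Tnfsf11 (-0.064, quantile), and the ratio in endothelial cells (0.082, quantile) and between tumor-free cell types (-0.019, without replicate 1 of both). The cause was not tested.

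With 1 array left out, values ranged from -0.48 to 0.42 for Csf1 in osteoblasts and from -0.28 to 0.47 between cell types with tumor, from -0.065 to 0.17 for Tnfsf11 in endothelial cells and from -0.067 to 0.37 for its difference of differences, from -0.82 to -0.49 for Tnfsf11 between tumor-free cell types and from -1.03 to -0.59 between those with tumor. Tnfrsf11b ranged from 1.34 to 1.93 in osteoblasts, from -1.36 to -0.80 between tumor-free cell types and from 1.25 to 1.84 for its difference of differences, and the ratio from -0.13 to 0.047 in endothelial cells and from -0.014 to 0.72 between tumor-free cell types. Genes called ranged over all settings from 0 (only the groups compared, 1820 at an unadjusted p under 0.05 in limma) to 1573 in osteoblasts against 570, from 0 to 159 in endothelial cells against 3, from 1911 to 6564 between tumor-free cell types against 3850, and from 0 to 545 for the difference of differences against 26. Tnfrsf11a gave no value under the filter at the 70th percentile. In osteoblasts Nfatc1, Jag1, Stat3 and Thbs1 lost their calls under the block, Lif, Il11, Thbs1, Nfatc1, Jag1, Stat3 and Cxcl1 with array weights per group, Nfatc1, Jag1, Stat3 and Cxcl1 with quantile normalization, Stat3 and Cxcl1 with the intensity trend, and Jag1 without replicate 1 of both tumor-free groups. Endothelial Tnfrsf11b lies below the array median, which limits every fold against it.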
